A study of Homo sapiens with 9 samples.

Results

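The genes described here are 9 regulators and markers of the epithelial-mesenchymal transition (EMT): the transcription factors SNAI1, SNAI2, ZEB1, ZEB2 and TWIST1, the cadherins CDH1 and CDH2, the intermediate filament gene VIM and the matrix gene FN1. They were chosen by name and matched to 9 GENCODE rows among the 112171 annotated features of the count table. RNA-seq was done on total RNA of PANC-1, an established cell line from a human pancreatic ductal carcinoma. All 9 libraries came from cells kept under hypoxia for 12 h, and no library came from cells at normal oxygen. In 3 libraries the medium held 0.04% DMSO, the solvent control, in 3 it held rakicidin A at 42 nM and in 3 it held BE-43547A1 at 41 nM, so the doses of the compounds differed slightly. Both compounds are bacterial cyclic lipodepsipeptides that carry an amido-pentadienoate unit. Whether the compound media held the same amount of DMSO is not stated in the labels. The labels do not tie the replicates to separate cultures, and the p-values then cover only the scatter among the 9 libraries, part or all of which may be technical.

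In an EMT, epithelial cells loosen their junctions and take up a migratory, mesenchymal form. SNAIL, SLUG and the ZEB proteins (from SNAI1, SNAI2, ZEB1 and ZEB2) bind E-box letters in DNA and repress epithelial genes, of which CDH1, encoding E-cadherin, is the best known. N-cadherin (CDH2), vimentin (VIM) and fibronectin (FN1) are the classical mesenchymal markers. In pancreatic carcinoma lines, mixed states that hold both kinds of markers are common.

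Counts on features summed to between 27696394 and 30596594 per DMSO library, between 26203326 and 34870860 for rakicidin A, and between 39807220 and 45048999 for BE-43547A1. Levels are given as CPM (counts scaled to the size of the library) with TMM factors, a method that sets the bulk of features level between libraries. Relative to scaling by total counts alone, this moved the median log2 fold change of the 22353 tested features from -0.38 to -0.02 with rakicidin A against DMSO, from -0.24 to 0 with BE-43547A1 against DMSO, and from -0.14 to -0.02 between the compounds. All changes below are relative to the bulk of features. DMSO replicate 3 stood apart from the other DMSO libraries, with 8879 CPM of the nuclear RNA MALAT1 against 4924 and 5003 CPM (6658 to 11690 CPM in the treated libraries), and the calls on the 9 genes were the same in number without it. The line's ductal markers were present, with summed levels of 2930 to 3100 CPM over 7 genes in DMSO, mostly keratins. These sums were 2510 to 2630 CPM in the rakicidin A libraries and 3470 to 3730 CPM in the BE-43547A1 libraries. Summed levels of 8 fibroblast markers were 4.07 to 4.55 CPM in DMSO, 2.8 to 3.65 CPM after rakicidin A and 3.84 to 4.35 CPM after BE-43547A1. Those of 6 leukocyte markers were 1.68 to 2.13 CPM in DMSO, 2.43 to 2.88 CPM after rakicidin A and 3.61 to 4.43 CPM after BE-43547A1, most of it ITGAM, while CD3E was at 0 in every library. Those of 3 endothelial markers were at most 0.54 CPM. Whether these markers have a part in the results was not tested.

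The 9 genes covered a wide range of levels. Per kilobase of exon, DMSO cells held 872.7 ± 18.5 CPM of VIM, 21.7 ± 0.568 of CDH2, 12.1 ± 0.638 of ZEB1, 2.62 ± 0.264 of SNAI1 and 1.30 ± 0.0717 of CDH1 (SD, n = 3). SNAI2 followed at 0.115 ± 0.0118 CPM per kilobase, then FN1 at 0.0381 ± 0.0114 and ZEB2 at 0.0194 ± 0.00822 on the same scale. Neighbours in this order did not overlap over the 3 DMSO libraries, other than FN1 and ZEB2. After either compound ZEB1 stood above CDH2, at 21.4 ± 0.305 against 19.6 ± 0.311 CPM per kilobase after rakicidin A and at 21.6 ± 1.30 against 19.1 ± 0.419 after BE-43547A1. The 2 genes did not overlap over the libraries of any group. The order was the same with the length of the longest transcript in place of all exons. PANC-1 cells under hypoxia thus held VIM, CDH2, ZEB1 and SNAI1 above CDH1 per length in all 3 groups, and very little SNAI2, FN1 or ZEB2.

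**Figure D1:**
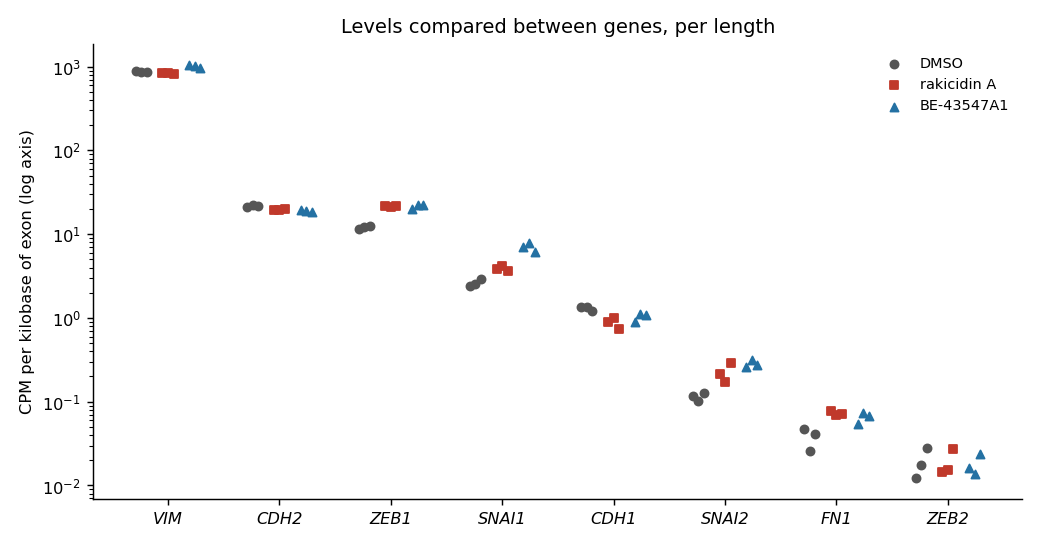
Level of 8 of the genes as CPM per kilobase of exon on a log axis, with 1 point per library and the groups by colour and shape. VIM lies far above the rest, and ZEB1 passes from below CDH2 in DMSO (12.1 against 21.7) to above it after rakicidin A (21.4 against 19.6).

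TWIST1, a basic helix-loop-helix factor, was not detected beyond 1 count in 1 library, BE-43547A1 replicate 1, with 0 counts in the other 8. A count of 0 allows up to 3 counts, or 0.0853 to 0.0948 CPM in the DMSO libraries. This limit covers counting error only. TWIST1 was not tested, and the other 8 genes entered the test.

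ZEB1, a zinc finger and homeodomain repressor, was the most abundant of the 5 transcription factors among the 9 genes. It stood at 98.5, 105 and 109 CPM in the DMSO libraries, at 187, 182 and 186 CPM after rakicidin A and at 174, 191 and 195 CPM after BE-43547A1. Every treated library was above every DMSO library, and the treated groups overlapped. ZEB1 rose 1.77-fold after rakicidin A (log2 fold change 0.83 ± 0.06 (SE), adjusted p = 5.2e-10 by edgeR's quasi-likelihood test) and 1.79-fold after BE-43547A1 (0.84 ± 0.06, adjusted p = 3.87e-10).

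ZEB1 and the antisense transcript ZEB1-AS1 start close to each other on opposite strands, and ZEB1 is known to bind E-box letters itself, so the E-boxes upstream of ZEB1 starts are shown. RefSeq (GRCh38.p14) gives ZEB1 7 windows of 300 bases around annotated starts. The E-box letters CACCTG, read as CAGGTG on the opposite strand, occurred in 2 of these 7 windows and in 20.6% of all 35116 RefSeq windows. Upstream of the start they occurred at 3 places, shown with 30 bases each on the plus strand and the E-box letters in capitals. Positions are counted from the start, with the base before it at -1. The first is at -57 from the start at base 31318417, and the others are at -242 and -85 from the start at base 31319216.
ZEB1 E-box -57, chr10:31318348-31318377: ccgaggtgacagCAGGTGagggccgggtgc
ZEB1 E-box -242, chr10:31318966-31318995: ccccaccaCACCTGaggaaaacttttccct
ZEB1 E-box -85, chr10:31319119-31319148: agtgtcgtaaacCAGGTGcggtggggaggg
The stretches at -57 and -242 lie within annotated ZEB1-AS1 exons (GENCODE v29), and those at -242 and -85 within ZEB1 exons. The start of ZEB1-AS1 at base 31319095 lies 121 bases before the ZEB1 start at 31319216, so that the E-boxes at -242 and -85 lie on either side of it. The windows of VIM, ZEB2, FN1 and CDH2 held none of these letters. Windows were at hand for 5 of the 9 genes. Searched on both strands, the hypoxia response letters ACGTG were in the windows of VIM and ZEB2 and in 1 window of ZEB1, and in 21.4% of all windows. The AP-1 letters TGACTCA, in 4.95% of all windows, and the C/EBP-ATF letters TGATGCAA, in 0.866%, were on neither strand of the windows at hand for the 9 genes.

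ZEB1-AS1 moved the other way from ZEB1. The DMSO libraries held 3.76, 2.84 and 2.98 CPM of ZEB1-AS1, those with rakicidin A 0.983, 0.735 and 1.42 CPM and those with BE-43547A1 1.35, 1.06 and 0.889 CPM. No treated library reached the lowest DMSO library. ZEB1-AS1 fell by 1.64 ± 0.22 on the log2 scale after rakicidin A (adjusted p = 3.24e-06) and by 1.52 ± 0.20 after BE-43547A1 (adjusted p = 2.31e-06, edgeR). It rests on 90 to 123 counts per DMSO library and 23 to 60 per treated library. Exons of ZEB1 and ZEB1-AS1 share 366 bases, 9.55% of the exon bases of ZEB1-AS1, and the strand setting of the count is not given in the sources used here, so reads from that overlap cannot be told apart. ZEB1-AS1 and the other antisense genes and pseudogenes were looked up after the values of the 9 genes were seen.

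The miR-200 family, microRNAs that bind the ZEB1 and ZEB2 messages in epithelial cells, had 14 features in the table, and all 14 were at 0 in every library. The features are gene rows of the family and mature microRNAs. These are libraries of total RNA with reads of 76 bases, and mature microRNAs are shorter. Of all 2636 features for mature microRNAs from the miRBase catalogue, 0 entered the test, so the zeros there are not particular to this family.

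SNAI1, encoding SNAIL, rose after both compounds and further after BE-43547A1. The DMSO libraries held 4.07, 4.26 and 4.92 CPM of SNAI1, the rakicidin A libraries 6.55, 6.94 and 6.06 CPM and the BE-43547A1 libraries 12.0, 13.1 and 10.3 CPM. The 3 groups did not overlap. SNAI1 was 1.48-fold higher after rakicidin A than in DMSO (log2 fold change 0.56 ± 0.12, adjusted p = 0.000541) and 2.66-fold higher after BE-43547A1 (1.41 ± 0.11, adjusted p = 2.23e-09, edgeR). Scaled by total counts alone, the rise after rakicidin A was 0.21 on the log2 scale and did not pass (adjusted p = 0.151). SNAI1 was lower after rakicidin A than after BE-43547A1 (log2 fold change -0.85 ± 0.11, adjusted p = 4.81e-06).

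SNAI2, encoding SLUG, was scarce, with 11 to 15 counts per DMSO library, 18 to 23 per rakicidin A library and 36 to 43 per BE-43547A1 library. Its levels were 0.397, 0.347 and 0.426 CPM in DMSO, 0.728, 0.576 and 0.988 CPM after rakicidin A and 0.877, 1.06 and 0.941 CPM after BE-43547A1. Every treated library was above every DMSO library, and the treated groups overlapped. SNAI2 rose after rakicidin A (log2 fold change 0.93 ± 0.29, adjusted p = 0.00969) and after BE-43547A1 (1.28 ± 0.26, adjusted p = 0.000282, edgeR). The call after rakicidin A did not hold with total counts alone (0.57, adjusted p = 0.0871), nor with rakicidin A replicate 3 left out (0.74, adjusted p = 0.0573).

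ZEB2, the paralog of ZEB1, rested on 10 to 25 counts per library. It stood at 0.306, 0.442 and 0.710 CPM in DMSO, 0.364, 0.384 and 0.687 CPM after rakicidin A and 0.405, 0.346 and 0.601 CPM after BE-43547A1, and the 3 groups overlapped. No difference in ZEB2 was detectable at this depth, with 95% intervals of the log2 fold change from -0.87 to 0.72 for rakicidin A and from -0.87 to 0.61 for BE-43547A1. Their upper bounds lie below the log2 fold changes of ZEB1. The ZEB1 interval after rakicidin A began at 0.70, however, and overlapped that of ZEB2. The difference between the genes was not tested.

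**Figure D2:**
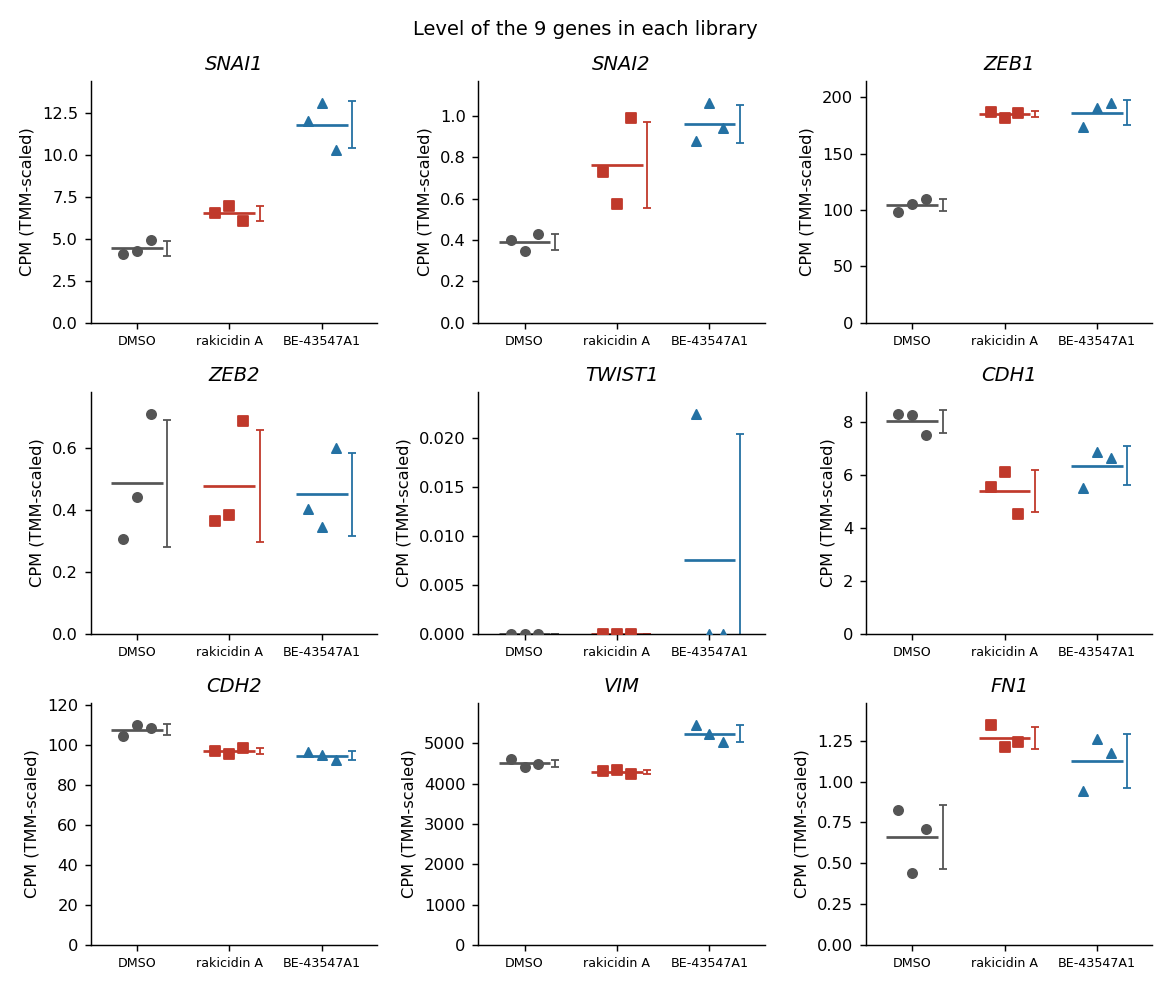
CPM (TMM-scaled) of the 9 genes in each library, with points for the 3 libraries of a group, a line at their mean and a bar of 1 SD beside it, and axes that start at 0. ZEB1, SNAI1, SNAI2 and FN1 are higher in every treated library than in every DMSO library, CDH1 and CDH2 are lower, and TWIST1 has 1 count in 1 library.

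Both cadherins fell after both compounds. CDH1, the epithelial cadherin, stood at 8.28, 8.24 and 7.50 CPM in DMSO, at 5.53, 6.11 and 4.51 CPM after rakicidin A and at 5.51, 6.87 and 6.64 CPM after BE-43547A1. All treated libraries were below all DMSO libraries, and the treated groups overlapped. CDH1 was lower after rakicidin A (log2 fold change -0.56 ± 0.12, adjusted p = 0.000583) and after BE-43547A1 (-0.34 ± 0.12, adjusted p = 0.0144, edgeR). The second call was lost without BE-43547A1 replicate 1, the library with the lowest CDH1 of its group (-0.23, adjusted p = 0.108).

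The mesenchymal cadherin CDH2 also fell, by small amounts. Its levels were 104, 110 and 108 CPM in DMSO, 96.7, 95.4 and 98.5 CPM after rakicidin A and 96.4, 94.9 and 92.3 CPM after BE-43547A1. The DMSO libraries were above all treated libraries, which overlapped. CDH2 was lower by 0.15 ± 0.05 on the log2 scale after rakicidin A (log2 fold change -0.15, adjusted p = 0.017) and by 0.18 ± 0.05 after BE-43547A1 (-0.18, adjusted p = 0.00374, edgeR). The call after rakicidin A was lost with no filter on low counts (adjusted p = 0.0727) and without DMSO replicate 2 (0.0655) or rakicidin A replicate 1 (0.0783), 2 (0.102) or 3 (0.0569). 

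The ratio of CDH2 to CDH1, often read as a cadherin switch, was computed per length in each library. CDH2 was 15.7, 16.6 and 18.0 times CDH1 in DMSO, 21.8, 19.5 and 27.3 times after rakicidin A and 21.8, 17.2 and 17.4 times after BE-43547A1. The rakicidin A libraries all lay above the DMSO libraries, while the BE-43547A1 libraries overlapped both groups. On the log2 scale the ratio was 0.43 higher after rakicidin A than in DMSO (exact two-sided permutation test over 3 and 3 libraries, p = 0.1, the smallest p this design allows) and 0.16 higher after BE-43547A1 (exact permutation p = 0.4). The compounds differed by 0.28 (exact permutation p = 0.3). Without BE-43547A1 replicate 1 the second difference was 0.046, and without rakicidin A replicate 3 that between the compounds was 0.142. None of these 3 values can pass a threshold of 0.05.

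VIM differed between the compounds. It stood at 4607, 4421 and 4476 CPM in DMSO, 4315, 4332 and 4242 CPM after rakicidin A and 5450, 5227 and 5035 CPM after BE-43547A1, and the 3 groups did not overlap. VIM was 1.16-fold higher after BE-43547A1 than in DMSO (log2 fold change 0.22 ± 0.05, adjusted p = 0.000511) and did not pass after rakicidin A (-0.07 ± 0.05, adjusted p = 0.228, edgeR). On total counts alone, VIM was at -0.02 after BE-43547A1 (adjusted p = 0.729) and passed as lower after rakicidin A (-0.42, adjusted p = 2.33e-07). The difference between the compounds held on both scales: VIM was lower after rakicidin A than after BE-43547A1 (log2 fold change -0.29 ± 0.05, adjusted p = 8.16e-05). The summed ductal markers were likewise lowest after rakicidin A and highest after BE-43547A1, and their part in the VIM result was not tested. In this bulk RNA, fewer cells that carry a transcript and less of it per cell cannot be told apart.

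VIM-AS1, an antisense transcript at VIM, was also higher after BE-43547A1. It stood at 38.5, 34.3 and 34.2 CPM in DMSO, 52.7, 42.2 and 37.8 CPM after rakicidin A and 106, 91.5 and 81.0 CPM after BE-43547A1. The BE-43547A1 libraries were above all others, and rakicidin A replicate 3 lay within the DMSO range. The log2 fold change of VIM-AS1 against DMSO was 1.38 ± 0.10 after BE-43547A1 (adjusted p = 1.02e-09) and 0.31 after rakicidin A (adjusted p = 0.0157, edgeR). The latter was -0.05 with total counts alone (adjusted p = 0.726), and leaving out rakicidin A replicate 1 took it to 0.18 (adjusted p = 0.13). Exons of VIM and VIM-AS1 share 641 bases, 32.2% of the exon bases of VIM-AS1, whose reads cannot be told apart without a known strand setting.

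**Figure D3:**
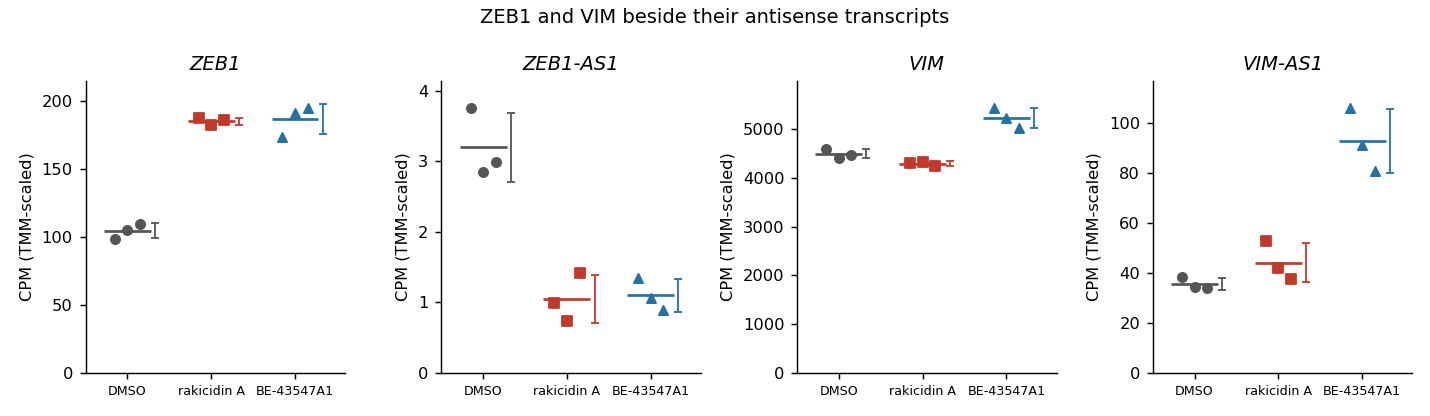
CPM (TMM-scaled) of ZEB1, ZEB1-AS1, VIM and VIM-AS1 in each library, with a line at the group mean, a bar of 1 SD and axes that start at 0. ZEB1 is higher and ZEB1-AS1 lower in all 6 treated libraries, while VIM and VIM-AS1 are both highest after BE-43547A1.

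FN1, which encodes fibronectin, was nearly silent, with 14 to 27 counts per DMSO library, 29 to 38 per rakicidin A library and 42 to 51 per BE-43547A1 library. It stood at 0.825, 0.442 and 0.710 CPM in DMSO, 1.35, 1.22 and 1.25 CPM after rakicidin A and 0.945, 1.26 and 1.18 CPM after BE-43547A1. All treated libraries were above all DMSO libraries. FN1 rose 1.91-fold after rakicidin A (log2 fold change 0.93 ± 0.25, adjusted p = 0.00289) and 1.69-fold after BE-43547A1 (0.76 ± 0.24, adjusted p = 0.00847, edgeR). The second call was lost with total counts alone (0.52, adjusted p = 0.0566) and without DMSO replicate 2 (0.54, adjusted p = 0.0583).

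Over the 8 genes tested, 4 rose after rakicidin A (SNAI1, SNAI2, ZEB1 and FN1), 2 fell (CDH1 and CDH2) and 2 did not pass (ZEB2 and VIM). After BE-43547A1, 5 rose (the same 4 and VIM), 2 fell (CDH1 and CDH2) and ZEB2 did not pass. Calls were frequent in these data as a whole: of all features tested, 64.7% passed after rakicidin A (31.9% higher and 32.7% lower) and 70.4% after BE-43547A1 (35.3% higher and 35.1% lower). The 6 of 8 and 7 of 8 genes called are near that background and are no result about these genes as a set. Ranges of CPM did not overlap between the groups for 67.5% of all features after rakicidin A, for 71.6% after BE-43547A1 and for 57.6% between the compounds. Leaving out DMSO replicate 2 or rakicidin A replicate 1, 2 or 3 took the number that fell after rakicidin A to 1, with CDH2 lost, and leaving out BE-43547A1 replicate 1 took the number that fell after BE-43547A1 to 1, with CDH1 lost. Among the genes that rose, SNAI2 was lost after rakicidin A without replicate 3 of that compound, and FN1 after BE-43547A1 without DMSO replicate 2. The comparisons share the DMSO libraries, so that agreement in direction between the compounds is not independent. Scaled by total counts alone, 2 genes rose after rakicidin A (ZEB1 and FN1) and 3 fell (CDH1, CDH2 and VIM). On that scale 3 rose after BE-43547A1 (SNAI1, SNAI2 and ZEB1) and 2 fell (CDH1 and CDH2).

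**Figure D4:**
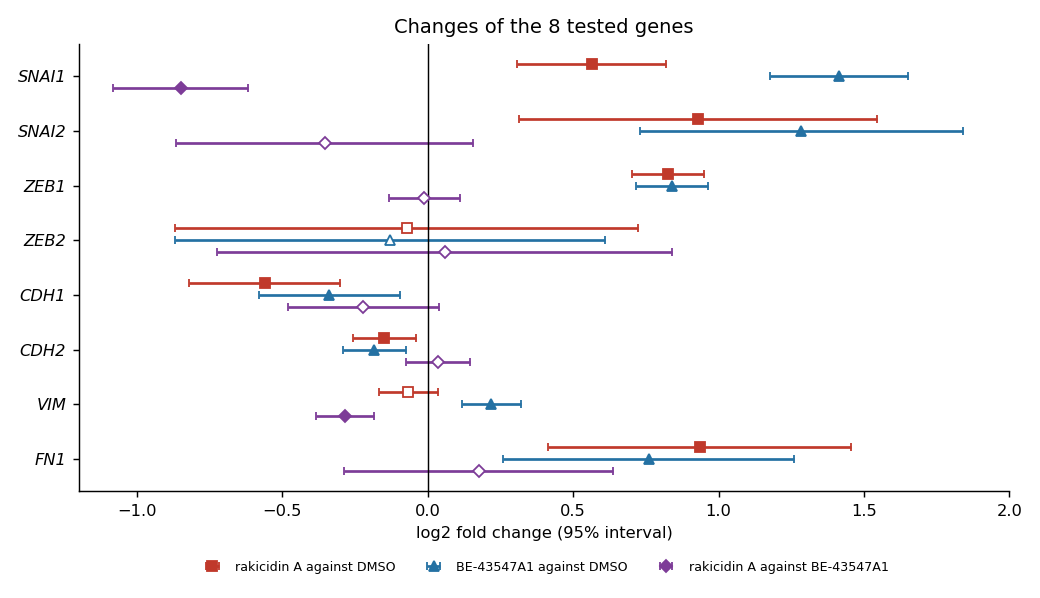
Log2 fold change of the 8 tested genes with its 95% interval, by comparison, with filled symbols where the adjusted p was below 0.05 and open ones where it was not. SNAI1 and VIM are the genes with a filled symbol for rakicidin A against BE-43547A1, and ZEB2 has an interval that spans 0 in all 3 comparisons.

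Set directly against each other, the compounds differed in SNAI1 and VIM, which were both lower after rakicidin A, and in none of the other 6 genes. In this comparison 46.6% of all features passed, 24.1% higher and 22.5% lower after rakicidin A. For ZEB1 the 95% interval of the log2 difference, rakicidin A minus BE-43547A1, was -0.13 to 0.11, and for CDH2 it was -0.07 to 0.14. The intervals were wider for CDH1 (-0.48 to 0.04), SNAI2 (-0.87 to 0.16), FN1 (-0.29 to 0.64) and ZEB2 (-0.72 to 0.84); a p that misses the threshold does not show that the compounds act alike on these 4 genes. On total counts alone, CDH1 also passed as lower after rakicidin A (-0.34, adjusted p = 0.0285).

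For each of the 8 genes, the 3 most similar profiles among 10214 GENCODE genes with at least 5 CPM were taken by the root mean square difference of centred log2 CPM over the 9 libraries. For SNAI1 these were IRF1 (0.051), DNAJB1 (0.0615) and SPRY4 (0.0794), and for ZEB1 they were TRIP10 (0.0221), AATF (0.0541) and ARIH1 (0.0582). CDH1 was closest to TP53I13 (0.0899), TSGA10 (0.096) and BAZ2B (0.103), CDH2 to PTGR1 (0.0272), GM2A and RAD21, and VIM to PCYT2 (0.0387), FAM129B and TRAF7. For the scarce genes the smallest difference was 0.163 for SNAI2 (WDR19), 0.154 for FN1 (PCK2) and 0.232 for ZEB2 (LDHAP5). The root mean square spread of each gene about its own mean also differed. It was 0.587 for SNAI1, 0.533 for SNAI2, 0.461 for FN1, 0.397 for ZEB1 and 0.376 for ZEB2. For CDH1 it was 0.274, for VIM 0.126 and for CDH2 0.084. The differences can therefore not be compared between genes by size alone. These are descriptions of 9 libraries in 3 groups.

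Among 13 other transcription factors known to drive or modulate an EMT, 9 were tested. After rakicidin A, 1 rose (ETS1) and 3 fell (among them SOX4 and HMGA2), and after BE-43547A1, 2 rose (ETS1 and FOXC2) and the same 3 fell. In the same comparisons 31.9% and 35.3% of all features were higher and 32.7% and 35.1% lower. The median log2 fold changes of the 9 factors were -0.16 and -0.23, against -0.02 and 0 over all features. On total counts alone, 1 was higher and 6 lower, and 2 higher and 5 lower. ETS1, a signal-responsive ETS-family activator, went from 139, 152 and 172 CPM in DMSO to 1113, 1165 and 1143 CPM after rakicidin A and 927, 961 and 943 CPM after BE-43547A1, rises of 2.89 ± 0.07 and 2.61 ± 0.07 on the log2 scale (adjusted p = 7.5e-17 and 3.03e-16). SOX4, an SRY-box factor, went from 88.3, 83.9 and 86.4 CPM to 21.9, 25.5 and 19.7 CPM and to 32.3, 34.5 and 29.9 CPM, with log2 fold changes of -1.94 ± 0.08 and -1.42 ± 0.08. FOXC2, a forkhead factor, had a log2 fold change of 0.99 ± 0.23 after BE-43547A1 (adjusted p = 0.000941) and 0.15 ± 0.26 after rakicidin A (adjusted p = 0.636), and was lower after rakicidin A than after BE-43547A1 (-0.84 ± 0.24, adjusted p = 0.00704). Its DMSO libraries held 1.04, 1.23 and 2.64 CPM, the rakicidin A libraries 2.15, 1.73 and 1.63 CPM and the BE-43547A1 libraries 3.35, 3.31 and 3.24 CPM. Without DMSO replicate 3, the highest of its group, FOXC2 passed as higher after rakicidin A too (0.70, adjusted p = 0.00688), which made 2 higher there, and stood at 1.53 after BE-43547A1 (adjusted p = 3.38e-07). HMGA2, and the genes below that are named only because 5 or fewer went in a direction, were chosen after their values were seen.

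The corepressors that SNAIL and ZEB proteins recruit showed no common direction. Of 12, 4 rose after rakicidin A (CTBP2, RCOR1, SUZ12 and AJUBA) and 5 fell (HDAC1, HDAC2, KDM1A, SIN3A and LOXL2), while after BE-43547A1 3 rose (CTBP2, RCOR1 and SUZ12) and 5 fell (HDAC1, HDAC2, KDM1A, EZH2 and AJUBA). Over all features, 31.9% and 35.3% were higher and 32.7% and 35.1% lower in these comparisons. Medians of the 12 corepressors were -0.08 and -0.07. The splits on total counts alone were 2 higher and 8 lower, and 1 higher and 8 lower. Without BE-43547A1 replicate 1, and with no filter on low counts, the number lower after BE-43547A1 was 3. CTBP2, a ZEB1 partner, rose by 0.96 ± 0.05 and 0.73 ± 0.05 on the log2 scale. Its paralog CTBP1, also in the list, passed for neither compound with TMM. CTBP1 averaged 82.2 CPM in DMSO, 78.2 CPM after rakicidin A and 80.4 CPM after BE-43547A1. AJUBA, a LIM protein that binds SNAIL, went opposite ways, with 77.0 CPM on average in DMSO, 125 CPM after rakicidin A (log2 fold change 0.70 ± 0.06, adjusted p = 2.26e-08) and 59.1 CPM after BE-43547A1 (-0.38 ± 0.07, adjusted p = 4.2e-05). It was higher after rakicidin A than after BE-43547A1 by 1.08 ± 0.07 (adjusted p = 7.32e-10). Without TMM, on total counts alone, RCOR1 did not pass for either compound (0.12, adjusted p = 0.0867, and 0.08, adjusted p = 0.282), and SUZ12 passed as lower after rakicidin A (-0.18, adjusted p = 0.0195) and did not pass after BE-43547A1 (0.12, adjusted p = 0.104). LOXL2, which modifies SNAIL, was lower after rakicidin A (-0.48 ± 0.07, adjusted p = 1.52e-05) and had a log2 fold change of -0.11 ± 0.07 after BE-43547A1 (adjusted p = 0.205). The latter passed as lower with total counts alone (-0.34, adjusted p = 0.000505) and without DMSO replicate 2 (-0.18, adjusted p = 0.0318). With total counts alone EZH2 also passed as lower after rakicidin A (-0.38, adjusted p = 1.66e-05) and SIN3A after BE-43547A1 (-0.27, adjusted p = 0.00286). Some calls in this list were lost with 1 library left out: that of SUZ12 after rakicidin A when DMSO replicate 3 (0.11, adjusted p = 0.1), or replicate 2 (0.091) or 3 (0.0641) of rakicidin A, was left out, that of HDAC2 after BE-43547A1 without BE-43547A1 replicate 1 (-0.12, adjusted p = 0.089), and that of HDAC1 after BE-43547A1 (-0.12, adjusted p = 0.0436) without DMSO replicate 2 or any 1 of the treated libraries (adjusted p = 0.0741 to 0.194).

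SNAIL and ZEB proteins are short-lived, and 16 genes for kinases, ubiquitin ligases and deubiquitinases that set their turnover were all tested. After rakicidin A 10 rose and 5 fell (FBXL14, FBXL5, USP51, USP27X and PAK1), with a median log2 fold change of 0.23. After BE-43547A1 7 rose and 8 fell, with a median of -0.04. The list mixes genes that stabilise these proteins with ligases, so the split gives no direction for their turnover. Against DMSO, 31.9% of all features were higher and 32.7% lower after rakicidin A, and 35.3% higher and 35.1% lower after BE-43547A1. USP51 had 54 to 83 counts per DMSO library, 1 to 3 per rakicidin A library and 4 to 6 per BE-43547A1 library. Its mean of 0.785 CPM lay below the limit for naming by size of change. The splits of the 16 genes were, on total counts alone, 4 higher and 8 lower, and 3 higher and 9 lower. LATS2, a kinase of the Hippo pathway, had 19.6 CPM on average in DMSO, 105 CPM after rakicidin A and 101 CPM after BE-43547A1, with log2 fold changes of 2.42 ± 0.07 and 2.37 ± 0.07 (adjusted p = 9.04e-16 and 1.47e-15). FBXL5, a ligase subunit for SNAIL, had log2 fold changes of -0.69 ± 0.08 and -1.02 ± 0.08, and USP27X, which stabilises SNAIL, of -0.88 ± 0.18 and -0.77 ± 0.17. SIAH1, a ligase for ZEB1, rose by 0.91 ± 0.07 after rakicidin A and by 0.29 ± 0.07 after BE-43547A1, the latter not passing with total counts alone (0.05, adjusted p = 0.493). Set against BE-43547A1, rakicidin A gave 7 of the 16 higher and 0 lower by edgeR, and 0 were lower by limma-voom, where 24.1% of all features were higher and 22.5% lower by edgeR. The 7 were 4 with total counts alone and 2 at a change of at least 1.5-fold. The fall of PAK1 after rakicidin A (-0.20, adjusted p = 0.00817) did not pass when replicate 2 of that compound was left out (-0.16, adjusted p = 0.0727).

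Of 18 genes of TGF-beta signalling, the pathway best known to start an EMT, 10 rose after rakicidin A and 12 after BE-43547A1. The same 4 fell after both (TGFB3, TGFBR3, SMAD3 and LTBP3). The list mixes ligands, receptors, SMADs and LTBP genes with inhibitors of the pathway. Of these inhibitors, SKI, SMURF1, SMURF2 and TGIF1 rose after both compounds, and SMAD7 and SKIL after BE-43547A1. The split therefore gives no direction for the activity of the pathway. Of all features 31.9% and 35.3% were higher and 32.7% and 35.1% lower. The medians were 0.22 and 0.26, against -0.02 and 0 over all features. With total counts alone 5 were higher and 8 lower after rakicidin A, and 7 higher and 5 lower after BE-43547A1. SMURF2, a ubiquitin ligase of the pathway, went from 85.7, 86.5 and 84.5 CPM in DMSO to 339.9, 343.8 and 360.8 CPM after rakicidin A and 207, 217 and 231 CPM after BE-43547A1, with log2 fold changes of 2.02 ± 0.06 and 1.35 ± 0.06. SMURF1 rose by 1.44 ± 0.06 and 1.48 ± 0.06. TGFBR3, the coreceptor betaglycan, went from 6.73, 6.57 and 7.16 CPM to 1.67, 1.44 and 1.68 CPM and to 1.55, 1.29 and 1.36 CPM (-2.10 ± 0.14 and -2.28 ± 0.13). The ligand gene TGFB3 had log2 fold changes of -1.34 ± 0.13 and -0.49 ± 0.12. The call on SMAD3 after rakicidin A (-0.21, adjusted p = 0.00971) did not pass when replicate 1 (-0.17, adjusted p = 0.0725) or 3 (-0.19, adjusted p = 0.0509) of that compound was left out, and its value was -0.12 without DMSO replicate 3 (adjusted p = 0.0422).

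Of 14 epithelial transcription and splicing factors, 8 were tested and 6, GRHL2 among them, were too low for the test. After rakicidin A 3 rose (KLF5, GRHL1 and ESRP1) and 5 fell (ELF3, GRHL3, ESRP2, OVOL2 and FOXA2), and after BE-43547A1 2 rose (KLF5 and GRHL1) and the same 5 fell. The medians, -0.86 and -0.91, stood against -0.02 and 0 over all features. Of all features 31.9% and 35.3% were higher and 32.7% and 35.1% lower. With no filter on low counts 5 were called higher after rakicidin A. KLF5, a zinc finger activator of epithelial genes, went from 2.29, 2.78 and 3.15 CPM to 19.2, 19.5 and 20.2 CPM and to 17.5, 17.7 and 16.9 CPM (log2 fold changes 2.84 ± 0.10 and 2.66 ± 0.10). ELF3, an epithelial ETS factor, had log2 fold changes of -2.32 ± 0.21 and -1.37 ± 0.18, the grainyhead factor GRHL3 of -1.98 ± 0.17 and -2.18 ± 0.16, and the splicing regulator ESRP2 of -1.17 ± 0.09 and -1.31 ± 0.08. ESRP1 did not pass after rakicidin A with total counts alone (0.36, adjusted p = 0.112). OVOL2 rested on 11 to 12 counts per DMSO library, 1 to 2 per rakicidin A library and 3 to 9 per BE-43547A1 library. OVOL2 after BE-43547A1 (-1.05, adjusted p = 0.0295) did not pass without any 1 of the DMSO libraries (adjusted p = 0.0588 to 0.0652) or without BE-43547A1 replicate 1 (-0.64, adjusted p = 0.183). With libraries left out the number lower after BE-43547A1 ranged from 4 to 5.

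The junction and polarity genes, several of them known targets of SNAIL and ZEB proteins, went both ways. Of 27 listed, 23 were tested: 9 rose and 8 fell after rakicidin A (median 0.10), and 10 rose and 5 fell after BE-43547A1 (CLDN7, MARVELD2, F11R, PKP3 and CDS1; median 0.23). With total counts alone 6 were higher and 11 lower, and 7 higher and 10 lower. With TMM, 31.9% of all features were higher and 32.7% lower after rakicidin A than in DMSO. After BE-43547A1 these shares were 35.3% and 35.1%. CLDN1, a tight junction claudin, went from 21.0, 21.5 and 23.7 CPM in DMSO to 119.3, 119.6 and 126 CPM after rakicidin A and 60.0, 63.6 and 62.4 CPM after BE-43547A1 (log2 fold changes 2.46 ± 0.06 and 1.49 ± 0.06). OCLN, encoding occludin, rose by 1.24 ± 0.08 and 0.60 ± 0.08, and CLDN4 by 0.65 ± 0.08 and 1.32 ± 0.08. ST14, the membrane protease matriptase, went from 0.825, 0.505 and 0.654 CPM to 1.53, 1.12 and 0.988 CPM after rakicidin A (0.87 ± 0.25, adjusted p = 0.00525, and 0.52 with adjusted p = 0.0794 with total counts alone) and 5.47, 5.07 and 4.21 CPM after BE-43547A1 (2.89 ± 0.20, adjusted p = 2.96e-10). Set against BE-43547A1, rakicidin A gave 5 of the 23 higher (among them CLDN1, OCLN, MARVELD2 and TJP1) and 13 lower. Of all features 24.1% were higher and 22.5% lower. At a change of at least 1.5-fold 3 were higher and 2 lower. With a library left out, the number lower ranged from 10 to 13.

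Of 12 genes of the cadherin-catenin complex other than CDH1 and CDH2, 9 were tested. After rakicidin A 3 rose (CTNNA1, VCL and AFDN) and PLEKHA7 fell, and after BE-43547A1 4 rose (CTNNA1, VCL, AFDN and JUP) and 2 fell (CTNND1 and PLEKHA7). Median log2 fold changes were 0.09 and 0.22, against -0.02 and 0 over all features. Among all features, 31.9% and 35.3% were higher and 32.7% and 35.1% lower, so the numbers that rose are near the background. VCL, encoding vinculin, rose by 0.72 ± 0.05 and 0.97 ± 0.05 on the log2 scale, and CTNNA1, encoding alpha-catenin, by 0.57 ± 0.06 and 0.51 ± 0.06. PLEKHA7, which tethers junctions to microtubules, had log2 fold changes of -1.42 ± 0.10 and -0.81 ± 0.09. JUP, encoding plakoglobin, had 0.47 ± 0.11 after BE-43547A1 (adjusted p = 0.000884) and 0.09 ± 0.11 after rakicidin A (adjusted p = 0.519). Without DMSO replicate 3 JUP passed as higher after rakicidin A (0.28, adjusted p = 0.00468). Totals alone as the scale gave 2 higher and 5 lower, and 2 higher and 3 lower. On that scale AFDN did not pass for either compound (0.04, adjusted p = 0.489, and 0.07, adjusted p = 0.178) and JUP did not pass after BE-43547A1 (0.23, adjusted p = 0.0752) and passed as lower after rakicidin A (-0.27, adjusted p = 0.0471). CTNND1 also passed as lower after rakicidin A on that scale (-0.40, adjusted p = 1.39e-06), against -0.04 with TMM (adjusted p = 0.507).

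Of 30 further mesenchymal and matrix genes, 29 were tested. After rakicidin A 6 rose and 12 fell, and after BE-43547A1 8 rose and 10 fell, with medians of -0.05 for both. Of all features 31.9% rose and 32.7% fell in the first comparison, and 35.3% rose and 35.1% fell in the second. On total counts alone, 5 were higher and 21 lower, and 4 higher and 18 lower. The 4 with the largest changes all rose after BE-43547A1, and the genes that fell are given as counts. These 4 do not stand for the list, in which more genes fell than rose after either compound. CNN1, encoding calponin, went from 1.19, 1.58 and 1.39 CPM in DMSO to 11.8, 9.69 and 10.0 CPM with rakicidin A and 18.7, 18.4 and 18.3 CPM after BE-43547A1 (log2 fold changes 2.92 ± 0.13 and 3.73 ± 0.12). TAGLN, encoding transgelin, rose by 2.18 ± 0.12 and 2.10 ± 0.12. CALD1, encoding caldesmon, rose by 1.19 ± 0.10 and 0.36 ± 0.10, the latter not passing with total counts alone (0.12, adjusted p = 0.273). ITGA5, the fibronectin receptor subunit, had a log2 fold change of 1.25 ± 0.07 after BE-43547A1 (adjusted p = 1.57e-11) and 0.04 ± 0.07 after rakicidin A (adjusted p = 0.603; -0.31 with adjusted p = 0.0012, a pass as lower, with total counts alone), and was lower after rakicidin A than after BE-43547A1 (-1.21 ± 0.07, adjusted p = 5.25e-10).

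**Figure D5:**
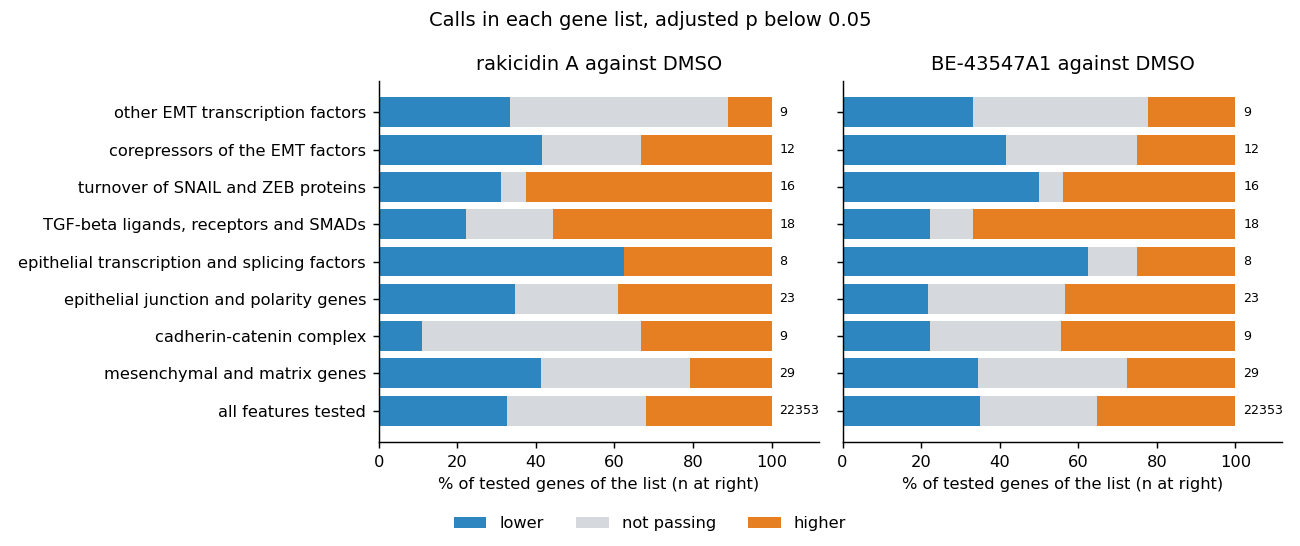
Share of the tested genes of each list called lower, not passing or higher at an adjusted p below 0.05, for each compound against DMSO, with the number tested at the right and all 22353 features in the bottom row. The epithelial transcription and splicing factors have 5 of 8 genes lower after either compound, where 32.7% and 35.1% of all features were lower. The TGF-beta list, which includes inhibitors of the pathway, has 10 and 12 of 18 higher, where 31.9% and 35.3% of all features were higher.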

How the data were processed

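Total RNA of 9 PANC-1 libraries was sequenced with paired-end reads of 76 bases, per the labels' protocols. Per the submitters' processing notes the authors used TopHat2 and HTSeq and the builds GRCh37 and hg19; settings and strand: not given in the sources used here. In the deposited table are raw counts per feature, with no normalization by the authors. Its 5 summary entries were left out. They held reads on no feature (16.4 to 20.8%), at several sites and ambiguous ones. Groups came from the labels.

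In R 4.3.3 with edgeR 4.0.16, features passing filterByExpr were scaled by TMM (factors 0.89 to 1.153) and fitted by quasi-likelihood over 9 libraries with a mean for each group (6 residual degrees of freedom). P-values were Benjamini-Hochberg adjusted over 22353 features, with a threshold of 0.05. Standard errors are the absolute log2 fold change divided by the square root of F, and intervals are at 95%. Log CPM used a prior count of 2. The fit was tested on simulated data. Genes were compared per length with GENCODE v29 exons (GRCh38). Exact permutation tests were two-sided. Per list, up to 4 genes were named, those with the largest change in either compound among genes that passed with a mean of at least 1 CPM. Some list genes are counted and not reported here by name. Levels of lists were counted and not tested.

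CPM are scaled by library size and TMM factor. The genes, lists, tests and alternatives were chosen with earlier results of these data known. Alternatives were DESeq2 1.42.0, limma-voom (limma 3.58.1), RLE size factors, no filter, total counts alone, the 6 libraries of a comparison, a replicate block, GENCODE features only, a change of at least 1.5-fold, and each library left out; thinning to the smallest library was added after seeing the data. Figures used matplotlib 3.10.9.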

Additional observations from a re-analysis of the deposited data

How the results depend on the processing

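Of the log2 fold changes of the 8 tested genes, ZEB1-AS1 and VIM-AS1, 249 of 270 values with a library left out and 280 of 300 under other alternatives kept direction and side of the threshold. For rakicidin A against DMSO the number of the 9 genes called higher went from 4 to 2 with total counts alone, where the number lower went from 2 to 3. With libraries left out the number higher ranged from 3 to 4 and the number lower from 1 to 2. The number lower went from 2 to 1 with no filter and to 0 at a change of at least 1.5-fold. The rise of SNAI1, at 0.56 on the log2 scale, also fell short of 1.5-fold. For BE-43547A1 against DMSO the number higher went from 5 to 3 with total counts alone and ranged from 4 to 5 with libraries left out. The number lower went to 0 at 1.5-fold and ranged from 1 to 2 with libraries left out. The rise of VIM, at 0.22 on the log2 scale, also fell short of 1.5-fold. For rakicidin A against BE-43547A1 the number lower went from 2 to 1 at 1.5-fold. The cause was not tested.

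No value that turned sign passed the threshold under that alternative. With total counts alone these were VIM after BE-43547A1 (-0.019), VIM-AS1 after rakicidin A (-0.046) and, between the compounds, ZEB2 (-0.061) and CDH2 (-0.086). CDH2 between the compounds was -0.008 with GENCODE features only, and ZEB2 -0.095 after thinning. With libraries left out, ZEB2 ranged from -0.37 to 0.32 after rakicidin A and from -0.38 to 0.25 after BE-43547A1. Between the compounds ZEB1 ranged from -0.069 to 0.026, ZEB1-AS1 from -0.366 to 0.107 and ZEB2 from -0.246 to 0.31.

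Over all features, total counts alone gave 4477 higher and 11392 lower after rakicidin A against 7141 and 7314 with TMM, 5951 and 10450 after BE-43547A1 against 7898 and 7840, and 3923 and 6868 between the compounds against 5387 and 5036. A change of at least 1.5-fold left 5215 lower after BE-43547A1, and 1898 higher and 2994 lower between the compounds. Of the counts per gene list, antisense genes included and markers not, 98 moved by over 1.5 times: 34 at 1.5-fold, 23 with total counts alone, 27 with a library left out and 14 under other alternatives. After rakicidin A 3 of 7 ductal markers were lower (5 with total counts alone), and after BE-43547A1 4 were higher (2 with total counts alone). For the list genes named by the size of their change there were 60 called changes. Of their 1140 recomputed values, 1124 were the same in direction and call, 16 lost the call and 0 turned sign. Genes named only because 5 or fewer went in a direction are not among the 60. Of those, SUZ12 turned sign and passed as lower after rakicidin A with total counts alone, as given above.

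Replicate numbers did not pair the libraries: same-numbered libraries correlated at -0.057 to 0.122 in their deviations from the group means, others at -0.097 to 0.092, and 3 of 9 libraries correlated best with their own number. With the replicate block the calls on the 9 genes stayed at 4 higher and 2 lower, 5 and 2, and 0 and 2 (SNAI1 after rakicidin A 0.56, ZEB1 0.83), and calls over all features were 7116 and 7243, 7876 and 7794, and 5353 and 4994. Depth limits SNAI2, ZEB2, FN1 and TWIST1, with at most 51 counts in any library.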
